A study of Mus musculus with 23 samples.

Results

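Monocyte-derived border macrophages were compared with microglia sorted from the same repopulated mouse brains, 1 day after an ischemic stroke. The members were chosen by label: they are the 3 libraries of tdT+ subdural CNS-associated macrophages (sdCAMs, the macrophages of the leptomeninges and the perivascular spaces) and the 3 microglia (MG) libraries of the pools F2, F3 and M2, which makes 6 of the 23 libraries of the series. All mice carried 1 Ccr2creERT2 allele and 2 copies of the R26tdT reporter, and all received tamoxifen at 2 mg per day on the last gavage day and at 2 further times. BLZ945, a CSF1R inhibitor that depletes brain macrophages, was gavaged at 200 mg/kg for 7 days, and stroke was induced by thrombin injection into the middle cerebral artery 8 weeks later. By their labels, pool F2 held 1 female mouse, pool F3 2 female mice and pool M2 2 male mice, whereas the methods of the study describe pooled mice for every BLZ945 replicate. The tdT- sdCAMs of the same 3 pools (3 libraries) and the tdT- sdCAMs and MG of 5 vehicle-treated mice of the same genotype, tamoxifen schedule and stroke model (10 libraries) served as points of reference.

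Cre in these mice is expressed from the Ccr2 locus and is active only after tamoxifen, so tdT marks cells that expressed Ccr2 around the time of dosing, and their descendants. Ccr2 encodes the receptor with which classical monocytes follow CCL2 into tissues. Microglia descend from yolk sac progenitors and renew themselves in the parenchyma, where TGF-beta signaling and the transcription factor SALL1 keep up their identity. According to the study, sdCAMs of untreated mice also descend from yolk sac progenitors. Border macrophages are nonetheless a separate population, with a program of scavenger receptors, C-type lectins and, in part, MHC class II molecules. Monocytes can replace border macrophages when the niche is empty, and the comparison asks how far such cells took on the border program relative to microglia of the same brain. The sdCAM gate required CD206, the product of Mrc1, and the MG gate excluded it, so Mrc1 was fixed by the sort. Both gates also left out cells positive for Ly6C, Ly6G or CD11c. The MG gate was not divided by tdT.

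The 6 libraries held between 10257806 and 11694098 counts in annotated genes, and 3 counts corresponded to 0.250 to 0.300 CPM (depth-normalized counts, with library sizes adjusted by the trimmed mean of M values). tdT+ libraries detected 14023 to 14255 genes and MG libraries 14447 to 15048. The reporter locus transcript Gt(ROSA)26Sor stood at 42.1, 42.3 and 29.5 CPM in tdT+ sdCAMs of pools F2, F3 and M2 and at 9.27, 9.08 and 6.53 CPM in MG; the tdT- sdCAMs of the same pools had a mean of 7.37 CPM. Ly6c2, which marks classical monocytes, was at 0.0, 0.0 and 0.0999 CPM in the tdT+ libraries, whose gate left out Ly6C-positive cells. Ms4a4c, Ifitm6 and Spn of the 15 monocyte markers were called higher in tdT+ sdCAMs than in MG and Fn1 and Treml4 lower, and the summed level of the list was 108 to 230 CPM against 75.3 to 118 CPM. Markers of neighboring cells were low but higher in tdT+ sdCAMs: 4 of 6 neuronal, 4 of 6 astrocytic and 3 of 9 mural and fibroblast markers were called, against 9.92% of all genes tested. The summed neuronal markers ranged from 106 to 262 CPM in tdT+ sdCAMs, from 104 to 265 CPM in tdT- sdCAMs and from 9.41 to 19.4 CPM in MG. For mural cells and fibroblasts the ranges were 74.7 to 115, 89.0 to 184 and 1.61 to 14.4 CPM. Summed astrocytic markers were 64.7 to 243 CPM in tdT+ sdCAMs and 208 to 292 CPM in MG, where Slc1a3 alone stood at 203 to 279 CPM. The calls of Spn, Treml4, Acta2, Vtn and Aldoc did not hold with the pool as a block. Among 9 fits without a pool or library, calls were lost in 8 for Vtn, in 7 for Slc1a2 and Aldoc, in 6 for Acta2, Spn and Treml4, in 5 for Gja1 and in 3 for Aqp4 and Snap25 (adjusted p up to 0.303). The part of such RNA in the results below was not tested. T cell and erythroid markers were at most 2.87 and 9.70 CPM in sum. Of the remaining marker lists, Zbtb46 and Cd209a of 9 dendritic cell genes, Cd79b of 6 B cell genes, Flt1 of 8 endothelial genes and 1 of 6 oligodendrocyte genes were called higher and Csf3r of 10 neutrophil genes lower. With the pool as a block Zbtb46, Cd79b and Flt1 were not called (adjusted p = 0.0873, 0.0721 and 0.0993), and their calls were lost in 8, 7 and 8 of 9 fits without a pool or library. Proliferation genes (4 of 8 tested) were not called. Clec9a and Cd3e had no count in any of the 6 libraries.

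tdT+ sdCAMs and MG differed in 2065 of 11657 genes tested (17.7%) by edgeR's quasi-likelihood test with Benjamini-Hochberg adjustment, which gives all adjusted p-values below unless another tool is named. Of these, 1156 were higher in tdT+ sdCAMs (9.92% of genes tested) and 909 were lower (7.8%), and the median log2 fold change over all genes tested was -0.04. In 2060 of them the values of both populations were fully apart. Over all genes tested, called or not, tdT+ values lay above all MG values in 19.6% and below them in 21.4%. Of the higher genes, 47 had no count in any MG library. Of the lower genes, 92 had no count in any tdT+ library. In bulk libraries, fewer expressing cells and less RNA per cell cannot be told apart. Without the MG library of a pool the count fell to between 889 and 997, and without a whole pool to between 745 and 967; without a tdT+ library it was 2173 to 2321.

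To place these differences, the tdT- sdCAMs and MG of the vehicle mice were compared, none of which gave a library to the comparison above. They differed in 3966 of 11838 genes tested (33.5%), with 18.8% higher and 14.7% lower in sdCAMs, and the genes called with a log2 fold change of at least 1 in either direction formed a border set of 1380 genes and a microglia set of 916 genes. In tdT+ sdCAMs the border set took 24.7%, 25.7% and 24.6% of all gene counts in pools F2, F3 and M2. In MG of the same pools it took 5.07%, 6.06% and 6.02%, so the 2 populations were far apart in every pool. tdT- sdCAMs of the same pools lay at 24.9% to 26.5% and vehicle tdT- sdCAMs at 24.1% to 26.4%. By this share alone, the tdT+ libraries lay within the range of the unlabeled border macrophages of vehicle mice. Abundant genes weigh most in such a share. The microglia set took 4.88%, 4.57% and 4.38% of counts in tdT+ sdCAMs and 21.2%, 18.4% and 17.9% in MG. tdT- sdCAMs of the same pools took 4.85%, 4.32% and 4.23%, which overlapped with the tdT+ libraries. Vehicle tdT- sdCAMs lay at 3.96% to 4.33%, below each of the 3 tdT+ libraries. Since the genes of that set were chosen for low levels in those vehicle libraries, this difference is given without a test.

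**Figure D1:**
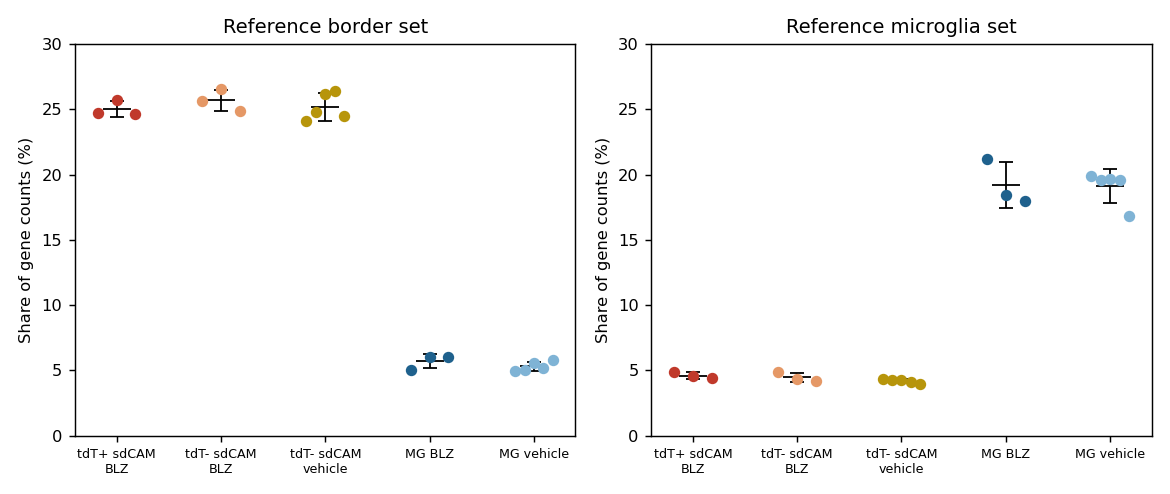
Share of gene counts (%, y axis) that fell on the 1380 border set genes (left) and the 916 microglia set genes (right) in each library, by population and treatment (x axis); dots are libraries, lines the mean and bars the SD (n = 3 for BLZ groups, n = 5 for vehicle groups). The tdT+ sdCAMs sit at 24.6% to 25.7% on the left and 4.38% to 4.88% on the right, beside the tdT- sdCAMs and apart from both MG groups.

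Gene by gene, 752 of the 1380 border set members were called higher in tdT+ sdCAMs than in MG (54.5% of all members, of which 1236 passed the filter on low counts), against 9.92% of all genes tested. The median log2 fold change of the 1236 tested members was 2.28, and in vehicle mice the same genes had a median of 2.38. Called lower were 3 members, Fzd8, Ifit2 and Pkp4, of which Fzd8 and Pkp4 are singled out with their values known. Fzd8, a Wnt receptor gene, had no count in tdT+ sdCAMs and 1.92, 3.99 and 5.94 CPM in MG. Among members with an average log2 CPM of at least 5, the border set genes with the lowest fold changes included Ifit2, Rsad2, Slc40a1 and Plk2, and the microglia set genes with the highest were Matk, Tmsb10, Rogdi, Tns1 and Exosc1. Rsad2, an interferon-induced gene, stood at 41.8, 17.7 and 58.9 CPM in tdT+ sdCAMs and 19.9, 98.1 and 108 CPM in MG, with overlap (log2 fold change -0.93 ± 0.62 SE, adjusted p = 0.361). Matk, a tyrosine kinase gene, stood at 42.3, 37.3 and 35.7 CPM against 46.2, 31.2 and 29.4 CPM, also with overlap (0.12 ± 0.26, adjusted p = 0.794). Of the 916 microglia set members, 898 passed the filter and 491 were called lower (53.6% of all members), against 7.8% of all genes tested, with a median of -1.87 in the pools and -1.88 in vehicle mice. Called higher were 0 by edgeR, 0 at an unadjusted p under 0.05 and 0 by DESeq2, and 24 of the 898 had a fold change above 0. Of all 1156 genes higher in tdT+ sdCAMs, 65.1% belonged to the border set, and of the 909 lower genes 54.0% belonged to the microglia set. Of the 11657 genes tested, 1236 were border set and 898 microglia set members. Without a single MG library, 443 to 464 border set and 309 to 315 microglia set genes were called.

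**Figure D2:**
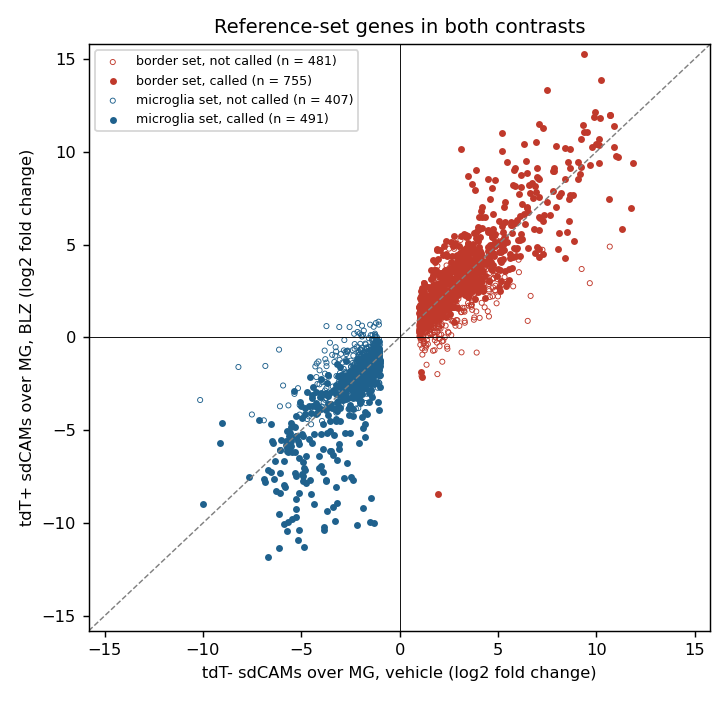
Log2 fold change of reference-set genes between tdT- sdCAMs and MG of vehicle mice (x axis) and between tdT+ sdCAMs and MG of the BLZ945 pools (y axis); filled dots were called in the pools (755 of the border set, 491 of the microglia set), open dots were not (481 and 407), and the dashed line marks equal changes. Most border set genes lie above 0 and most microglia set genes below 0 on the y axis; for genes without counts in 1 population the fitted value depends on the prior count.

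All 20 border macrophage markers were called higher in tdT+ sdCAMs, Mrc1 of the gate included, with a median log2 fold change of 8.53 (8.14 with the genes without MG counts set at their lower bound), against 9.92% called higher among all genes tested. The C-type lectin gene Clec10a (CD301a) stood at 505, 395 and 453 CPM in tdT+ sdCAMs of pools F2, F3 and M2 and had no count in the 3 MG libraries. Set against a floor of 3 counts per library it was at least 1772-fold higher (adjusted p = 2.08e-05). Mgl2, its neighbor that encodes CD301b, stood at 1060, 1186 and 590 CPM against 0.0, 0.0849 and 0.933 CPM (log2 fold change 11.42 ± 0.80 SE, adjusted p = 7.25e-05). Reads of these related lectin genes, and of the Cd209 family below, can be hard to assign where they are alike. Lyve1, which encodes a hyaluronan receptor of perivascular macrophages, reached 1804, 1156 and 1650 CPM against 0.0, 0.0849 and 1.61 CPM (11.40 ± 0.92, adjusted p = 1.31e-04). Cbr2, a carbonyl reductase gene, reached 2128, 1271 and 1558 CPM against 0.668, 1.10 and 1.27 CPM (10.67 ± 0.37, adjusted p = 5.55e-06). In each of these genes every tdT+ library was far above every MG library. Summed over the 20 markers, tdT+ sdCAMs of pools F2, F3 and M2 stood at 25620, 21420 and 22370 CPM. tdT- sdCAMs of the same pools stood at 27310 to 30350 CPM and vehicle tdT- sdCAMs at 25300 to 30040 CPM. The difference in this sum between tdT+ and tdT- sdCAMs was not tested.

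Cd163, which encodes the scavenger receptor for hemoglobin-haptoglobin complexes, stood at 325, 361 and 374 CPM in tdT+ sdCAMs and at 0.0, 0.0 and 0.763 CPM in MG (log2 fold change 10.39 ± 0.74 SE, adjusted p = 7.71e-05). F13a1, the gene of the coagulation factor XIII A subunit, stood at 2206, 2986 and 3226 CPM against 2.17, 5.86 and 6.61 CPM (9.18 ± 0.49, adjusted p = 2.58e-05). Ms4a7, a tetraspan membrane protein gene that separates border macrophages from microglia, stood at 1968, 1334 and 1127 CPM against 3.84, 4.24 and 3.99 CPM (8.53 ± 0.31, adjusted p = 5.55e-06). These genes were at most 6.61 CPM in any MG library, whereas other markers had higher levels in MG. Maf, the gene of a macrophage transcription factor, stood at 1398, 1034 and 943 CPM in tdT+ sdCAMs and still at 264, 179 and 177 CPM in MG (2.46 ± 0.24, adjusted p = 3.49e-04). Stab1 (2.80 ± 0.21), Dab2 (2.81 ± 0.45) and Tgfbi (2.46 ± 0.32) had changes of like size. Without pool M2 the adjusted p of Dab2 was 0.0584.

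The 10 genes with the largest rise under the naming rule, which asks for an average log2 CPM of at least 5, were Clec10a, Cd209f, Nxpe5, Mgl2, Lyve1, Ccl8, Fcna, Cbr2, Cd163 and Rgs18. Cd209f, a gene of the DC-SIGN lectin family, had 227, 173 and 96.6 CPM in tdT+ sdCAMs and no count in MG, at least 650-fold higher (adjusted p = 1.23e-04). Nxpe5 had 71.2, 107 and 168 CPM and no count in MG, at least 453-fold higher (adjusted p = 1.69e-04). Fcna, which encodes the soluble lectin ficolin A, had 344, 160 and 250 CPM against 0.0835, 0.0 and 0.339 CPM (log2 fold change 10.70 ± 0.61 SE, adjusted p = 3.23e-05). All 10 were members of the border set, so each was also higher in sdCAMs than in MG of vehicle mice. The calls of all 10 held in each of the 9 fits that left out a pool or a library.

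**Figure D3:**
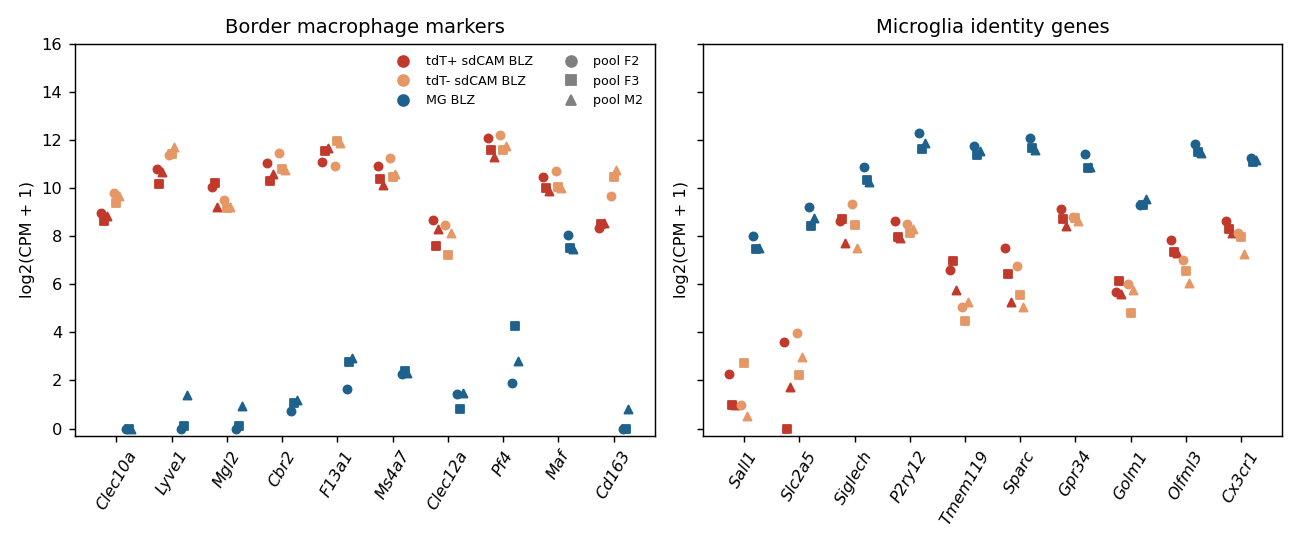
Level of 10 border macrophage markers (left) and 10 microglia identity genes (right) as log2(CPM + 1) in each library of pools F2, F3 and M2; colors are tdT+ sdCAMs, tdT- sdCAMs and MG, symbols are pools. Both sdCAM groups lie apart from MG in all 20 genes. The tdT+ values lie below all tdT- values in Clec10a, Lyve1 and Cd163 and above them in Tmem119, Olfml3 and Cx3cr1. None of these genes was called between tdT+ and tdT- sdCAMs. Over all genes tested in that comparison, tdT+ values lay below all tdT- values in 3.98% and above them in 4.82%.

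Signatures taken from other mice of the study, in which border macrophages were split by origin, gave the same direction against MG for both origins. The common sdCAM genes Apoe, Lyz2, Ms4a7 and Clec12a were all 4 called higher, against 9.92% of all genes tested. Apoe, the apolipoprotein E gene, stood at 48810, 41430 and 42800 CPM against 750, 555 and 348 CPM (log2 fold change 6.34 ± 0.32 SE, adjusted p = 2.13e-05). The 4 yolk sac sdCAM genes Cd163, Lyve1, Folr2 and C4b, which mark macrophages of embryonic origin, were also all higher. Folr2, a folate receptor gene, stood at 177, 106 and 161 CPM against 0.0835, 0.340 and 0.339 CPM (9.14 ± 0.44, adjusted p = 2.08e-05). Of the 6 HSC sdCAM genes, H2-Aa, H2-Ab1, H2-Eb1, Cd74 and Fxyd5 were called higher. The sixth, Ccr2, whose locus drives the Cre, stood at 8.10, 42.9 and 12.7 CPM against 3.76, 6.79 and 3.39 CPM, without overlap but with an adjusted p of 0.0660.

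Of the 20 microglia identity genes, 18 had a row in the table and were tested; 17 were called lower in tdT+ sdCAMs (94.4%, against 7.8% of all genes tested), with a median log2 fold change of -3.66, and the remaining gene, Upk1b, was not called. Sall1, the gene of the transcription factor that maintains microglial identity, stood at 3.86, 0.989 and 0.999 CPM in tdT+ sdCAMs and at 257.3, 176 and 180 CPM in MG (-6.69 ± 0.53 SE, adjusted p = 1.25e-04). Tmem119, a microglial surface protein gene, stood at 94.8, 123 and 54.1 CPM against 3418, 2630 and 2973 CPM (-5.04 ± 0.34, adjusted p = 5.97e-05). Sparc, which encodes a secreted matrix protein, stood at 180, 84.1 and 37.9 CPM against 4351, 3277 and 3102 CPM (-5.14 ± 0.56, adjusted p = 6.02e-04). None of these 3 genes overlapped between the populations.

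P2ry12, the gene of the ADP receptor that guides microglial processes, did not reach 0: it stood at 393, 251 and 240 CPM in tdT+ sdCAMs against 5001, 3203 and 3792 CPM in MG (log2 fold change -3.75 ± 0.27 SE, adjusted p = 8.48e-05). Cx3cr1, the fractalkine receptor gene that monocytes also express, stood at 397, 316 and 281 CPM against 2475, 2163 and 2290 CPM (-2.79 ± 0.19, adjusted p = 6.15e-05). The identity genes therefore fell by amounts that ranged from the -0.96 of Bin1 to the -6.69 of Sall1. In tdT- sdCAMs of the same pools P2ry12 was at 282.9 to 368 CPM and Cx3cr1 at 151 to 280 CPM. The Upk1b values were 10.9, 0.0 and 0.0 CPM against 63.5, 41.2 and 39.2 CPM (adjusted p = 0.116, or 0.0497 with the pool as a block). Calls of Bin1 (5 of 9 fits, adjusted p up to 0.0887 without pool F3), Sall3 (up to 0.0862) and Slc2a5 (up to 0.0738, both without pool M2) were lost when a pool or library was left out.

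The 10 genes with the largest fall under the same rule were Mmp12, Il1a, Lrrc3, Sall1, Slc2a5, Rtn4rl1, Mlph, Lpl, Adora3 and Cd34. Mmp12, the macrophage elastase gene, stood at 0.0965, 0.0 and 3.70 CPM in tdT+ sdCAMs and at 163, 276 and 577 CPM in MG (log2 fold change -8.05 ± 1.14 SE, adjusted p = 0.00234). Il1a, which encodes the alarm cytokine interleukin-1 alpha, stood at 0.868, 5.94 and 1.10 CPM against 310, 393 and 553 CPM (-7.29 ± 0.73, adjusted p = 4.03e-04). Slc2a5, the gene of the fructose transporter GLUT5, stood at 11.2, 0.0 and 2.30 CPM against 590, 344 and 438 CPM (-6.65 ± 1.07, adjusted p = 0.00446). Lpl, the lipoprotein lipase gene, had 17.7, 0.0 and 12.3 CPM against 220, 488 and 1206 CPM (-5.99 ± 1.24, adjusted p = 0.0135), and its adjusted p was up to 0.114 without pool M2. Vehicle mice showed the same contrast, with mean levels of 5.42 CPM for Mmp12 and 5.43 CPM for Il1a in tdT- sdCAMs and 315 and 379 CPM in MG.

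Of 25 lineage transcription factor genes, all tested, 7 were called higher (28%, against 9.92% of all genes tested) and 8 lower (32%, against 7.8%), with a median log2 fold change of 0.02. Beside Maf, the higher genes were Spic, Tfec, Runx3, Irf4, Klf4 and Id3. Spic, which encodes an ETS factor of iron-recycling macrophages, had 12.7, 42.4 and 8.79 CPM in tdT+ sdCAMs and 1 count in all MG libraries together, a ratio of 757 with an exact 95% counting interval of 135 to 29940 (adjusted p = 0.00151). Runx3 stood at 10.4, 36.8 and 19.0 CPM against 0.417, 1.70 and 0.933 CPM (4.44 ± 0.76, adjusted p = 0.00589). Tfec, a gene of the MiT family, stood at 20.5, 38.9 and 39.9 CPM against 2.00, 1.61 and 0.509 CPM (4.59 ± 0.61, adjusted p = 0.00167). Each of these genes was low in MG of every pool. Runx3 was not called without pool M2 (adjusted p = 0.0751) and Irf4 not in 2 of 9 fits (up to 0.0615 without pool F2).

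The lower factors included Sall1, Sall3, Mef2a, Irf8, Runx1, Bhlhe41 and Cebpa. Mef2a, a MADS-box factor gene, stood at 118, 133 and 100 CPM against 330, 315 and 386 CPM (log2 fold change -1.54 ± 0.19 SE, adjusted p = 0.00106). Irf8, needed for monocyte and microglia development, stood at 374, 337 and 432 CPM against 816, 790 and 825 CPM (-1.08 ± 0.16, adjusted p = 0.00329). Spi1, which encodes the common macrophage factor PU.1, stood at 499, 366 and 498 CPM against 492, 423 and 442 CPM, with overlap (0.02 ± 0.18, adjusted p = 0.959). Among these factors, Runx1 and Id3 lost their calls in 6 of 9 fits without a pool or library, Bhlhe41 in 5 and Klf4 in 4 (adjusted p up to 0.150, 0.0822, 0.0964 and 0.0957). Irf8 and Cebpa were not called without pool F3 (adjusted p = 0.0589 and 0.0846).

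TGF-beta signaling is required for microglial identity, and 6 of the 17 genes on that list were called lower, 1 higher and 5 not called, while 5 were not tested. The median log2 fold change of the 12 tested was -1.65, and 50% of them were lower, against 7.8% of all genes tested, while the 8.33% higher lay near the 9.92% of all genes. Tgfbr1, the type I receptor gene, stood at 67.6, 115 and 86.6 CPM in tdT+ sdCAMs and at 986, 1064 and 1000 CPM in MG (-3.49 ± 0.24 SE, adjusted p = 6.20e-05). Tgfbr2, the type II receptor gene, differed less: 265, 174 and 294 CPM against 356, 328 and 391 CPM (-0.54 ± 0.22, adjusted p = 0.132). Of the feedback inhibitors, Skil stood at 39.3, 45.9 and 21.2 CPM against 165, 239 and 190 CPM (-2.47 ± 0.31, adjusted p = 0.00133). Smad7 stood at 2.03, 19.9 and 8.69 CPM against 86.4, 105 and 106 CPM (-3.26 ± 0.66, adjusted p = 0.0126). Smad3, Ski and Itgav were lower as well, with log2 fold changes of -2.30, -1.56 and -1.74. Nrros, which encodes a protein that anchors latent TGF-beta on myeloid cells, was higher (0.68 ± 0.16, adjusted p = 0.0210). The calls of Smad7 and Nrros were lost in 3 and 6 of 9 fits, with an adjusted p up to 0.121 without pool M2 and 0.157 without pool F3. Smad3 was not called without pool M2 (0.0582) and Itgav not without pool F2 (0.0623).

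**Figure D4:**
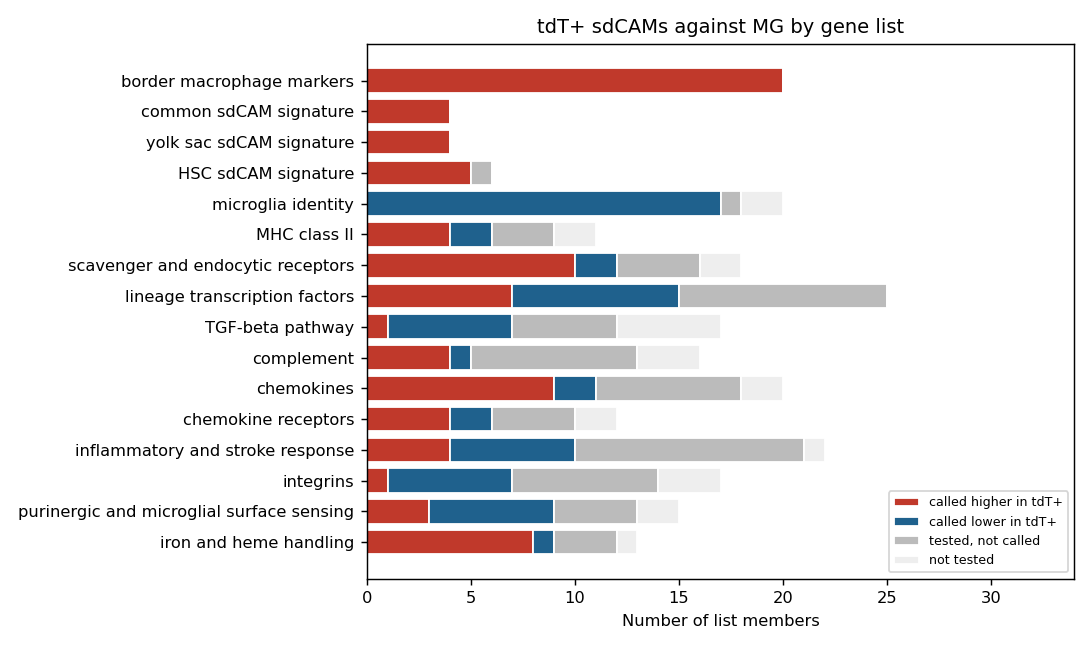
Number of members (x axis) of each of the 16 gene lists (y axis) that were called higher (red) or lower (blue) in tdT+ sdCAMs than in MG, tested but not called (gray) or not tested (light). All 20 border macrophage markers are red and 17 of 20 microglia identity genes are blue, while the 25 transcription factors split into 7 higher and 8 lower.

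Within the MHC class II list 4 of 11 genes were called higher, 2 lower and 3 not called, and 2 were not tested, with a median log2 fold change of 0.69. This made 44.4% of the tested genes higher and 22.2% lower, against 9.92% and 7.8% of all genes tested. H2-Aa, the gene of the I-A alpha chain, stood at 2875, 3072 and 1224 CPM in tdT+ sdCAMs and at 7.76, 8.57 and 4.16 CPM in MG (8.46 ± 0.52 SE, adjusted p = 4.17e-05). H2-Eb1, the I-E beta chain gene, stood at 2017, 1987 and 958 CPM against 5.59, 7.22 and 6.45 CPM (8.02 ± 0.39, adjusted p = 2.08e-05). Cd74, the gene of the invariant chain that escorts class II molecules, stood at 11020, 11120 and 5742 CPM against 115, 195 and 145 CPM (5.95 ± 0.37, adjusted p = 4.20e-05). H2-Ab1, the I-A beta chain gene, was higher by 6.47 ± 0.40 (adjusted p = 4.35e-05). In H2-Aa, H2-Eb1, Cd74 and H2-Ab1 alike, the library of pool M2 was clearly the lowest of the 3 tdT+ libraries.

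H2-DMa, a chain of the peptide exchange factor H2-M, stood at 533, 521 and 367 CPM against 418, 329 and 260 CPM (log2 fold change 0.51 ± 0.23 SE, adjusted p = 0.175). H2-DMb1, its partner chain, stood at 272.8, 232 and 173 CPM against 174, 133 and 116 CPM (0.69 ± 0.23, adjusted p = 0.0756); it was higher in each pool, and with the pool as a block the adjusted p was 0.0275. H2-Oa and H2-Ob encode the chains of H2-O, which inhibits H2-M. H2-Oa was lower, at 1.93, 0.0 and 0.5995 CPM against 31.1, 21.8 and 21.1 CPM (-4.84 ± 1.02, adjusted p = 0.0146). H2-Ob stood at 8.20, 10.9 and 4.10 CPM against 69.4, 39.1 and 31.5 CPM (-2.57 ± 0.47, adjusted p = 0.00791). H2-Oa lost its call in 4 of 9 fits and H2-Ob in 1, with adjusted p up to 0.120 without pool M2 and 0.0743 without pool F2. Ciita, the class II transactivator gene, was too low to be tested, with 3.18, 0.198 and 2.30 CPM against 0.167, 0.0 and 0.0 CPM.

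Promoter sequence is shown because genes of this list, which moved apart here, are textbook targets of 1 shared promoter module. The module includes the Y box, a reverse CCAAT element that the factor NF-Y binds. RefSeq promoter windows on build GRCm38.p6 matched 8 of the 11 members by symbol. The lines give the 120 bases before the annotated start, 5′ to 3′ on the coding strand, for 2 genes that were higher, 2 that were lower and 1 that was not called; capitals mark each ATTGG or its reverse complement CCAAT.
H2-Aa: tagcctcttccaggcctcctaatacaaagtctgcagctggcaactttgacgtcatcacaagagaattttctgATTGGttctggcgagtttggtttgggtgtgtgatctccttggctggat
H2-Eb1: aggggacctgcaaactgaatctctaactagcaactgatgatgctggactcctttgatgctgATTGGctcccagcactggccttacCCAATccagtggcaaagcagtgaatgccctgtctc
H2-Oa: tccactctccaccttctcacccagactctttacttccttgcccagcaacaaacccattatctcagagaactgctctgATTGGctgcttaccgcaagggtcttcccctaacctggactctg
H2-Ob: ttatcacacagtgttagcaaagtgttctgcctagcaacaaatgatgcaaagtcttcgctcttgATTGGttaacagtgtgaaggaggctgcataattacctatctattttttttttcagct
H2-DMb1: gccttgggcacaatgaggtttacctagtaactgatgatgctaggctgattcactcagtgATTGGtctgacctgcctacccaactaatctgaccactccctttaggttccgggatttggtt
These windows lie at chr17:34287824-34287943 (minus strand) for H2-Aa, chr17:34305747-34305866 for H2-Eb1, chr17:34092259-34092378 for H2-Oa, chr17:34238785-34238904 for H2-Ob and chr17:34153071-34153190 for H2-DMb1, the last 4 on the plus strand.
ATTGG began 48 bases before the start in H2-Aa, 59 in H2-Eb1, 43 in H2-Oa, 57 in H2-Ob and 61 in H2-DMb1. H2-Eb1 also held a reverse match, 35 bases before the start. All 5 windows held the longer string TGATTGG, which was chosen after the sequences were seen. On either strand, ATTGG occurred in 21.3% and TGATTGG in 5.15% of the 32851 promoter windows of the same length in the table, against 7 of 9 windows of the list for both strings. The 2 windows of H2-DMa held no match. The letters of the motif were therefore present in genes that were higher, lower and not called.

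The contrast to MG was also set against that in vehicle mice. The difference between both contrasts, tdT+ sdCAMs over MG in the pools and tdT- sdCAMs over MG in vehicle mice, was called in 64 of 13337 genes (0.48%), 12 of them positive (0.09%) and 52 negative (0.39%). Label, treatment and animals differ together in this test and cannot be told apart. H2-Aa had a positive difference of 3.62 ± 0.56 SE on the log2 scale (adjusted p = 0.00294). Its mean was 620 CPM in vehicle tdT- sdCAMs and 21.7 CPM in vehicle MG, against 6.83 CPM in MG of the pools. H2-Eb1 differed by 3.31 ± 0.45 (adjusted p = 0.00105), H2-Ab1 by 2.41 ± 0.46 (adjusted p = 0.0198) and Cd74 by 1.98 ± 0.35 (adjusted p = 0.0108). H2-Aa and H2-Eb1 kept their calls in all 14 fits that left out a pool, a library or a vehicle mouse, while H2-Ab1 lost it in 5 and Cd74 in 3 (adjusted p up to 0.0976 in both). Serpinf1, the gene of pigment epithelium-derived factor, was the fifth named gene, at 101, 138 and 65.7 CPM against 45.8, 27.3 and 26.5 CPM, with a difference of 2.12 ± 0.37 (adjusted p = 0.00940, up to 0.0735 without pool F3).

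**Figure D5:**
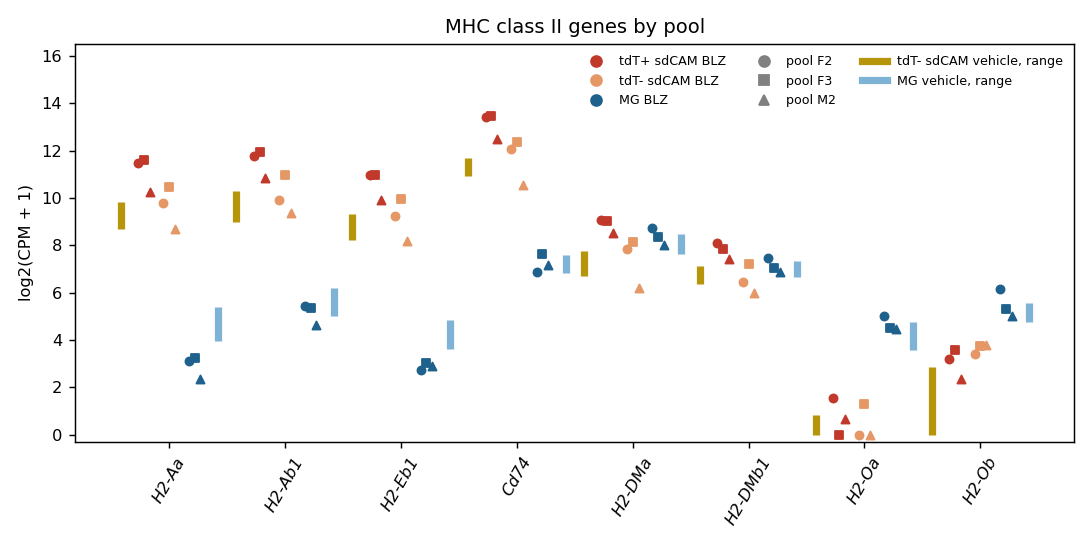
Level of 8 MHC class II genes as log2(CPM + 1) in tdT+ sdCAMs, tdT- sdCAMs and MG of pools F2, F3 and M2 (symbols are pools), with the range of the 5 vehicle libraries of each population as bars. H2-Aa, H2-Ab1, H2-Eb1 and Cd74 are highest in the tdT+ libraries within each pool, whereas H2-Oa and H2-Ob are highest in MG.

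At the other end were genes of the border set that were not called higher in tdT+ sdCAMs than in MG. Slc40a1, which encodes the iron exporter ferroportin, stood at 137, 91.4 and 155 CPM in tdT+ sdCAMs and at 224, 173 and 232 CPM in MG (log2 fold change -0.70 ± 0.23 SE, adjusted p = 0.0745, or 0.0280 with the pool as a block). In vehicle mice it was higher in tdT- sdCAMs, with a mean of 594 CPM against 245 CPM in MG, and the difference of contrasts was -1.98 ± 0.31 (adjusted p = 0.00300). P2rx7, an ATP-gated channel gene, stood at 126, 114 and 177 CPM against 122, 104 and 119 CPM, while vehicle means were 371 and 112 CPM (difference -1.44 ± 0.21, adjusted p = 0.00237). The tdT+ libraries lay below all MG libraries in Slc40a1 and overlapped them in P2rx7. In both genes they were below the 3 tdT- libraries of the same pools, as were 3.98% of all genes tested in that comparison. Neither gene was called between tdT+ and tdT- sdCAMs (adjusted p = 0.525 for Slc40a1 and 0.454 for P2rx7). The calls of both differences of contrasts held in all 14 fits.

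Under the naming rule, which takes genes with an average log2 CPM of at least 5, the largest negative differences were those of Ifit2, Sgce, Sox4, Xlr and Slc40a1. Ifit2, an interferon-induced gene, stood at 8.97, 9.40 and 29.7 CPM against 26.9, 86.3 and 97.6 CPM, with overlap across pools, and was called lower in tdT+ sdCAMs (log2 fold change -2.12 ± 0.61 SE, adjusted p = 0.0476), a call lost in 7 of 9 fits (up to 0.264, without pool F3). Its difference of -3.25 ± 0.71 was called at an adjusted p of 0.0499, and that call was lost in 10 of 14 fits (up to 0.179). Sgce, the gene of epsilon-sarcoglycan, stood at 20.7, 8.01 and 20.3 CPM against 183, 168 and 139 CPM (difference -2.52 ± 0.31, adjusted p = 9.89e-04). Sox4, a stem and progenitor cell factor gene, stood at 8.01, 4.06 and 6.39 CPM against 86.5, 58.9 and 60.6 CPM (difference -2.39 ± 0.44, adjusted p = 0.0126, lost in 3 of 14 fits). Xlr, an X-linked lymphocyte-regulated gene, stood at 8.01, 12.2 and 5.00 CPM against 87.3, 85.9 and 57.3 CPM (difference -2.33 ± 0.31, adjusted p = 0.00105). Sgce, Sox4 and Xlr were below every MG library in each pool. Of the 52 negative genes, 21 had at most 3 counts in each tdT+ library, which the choice by this difference favors. The median of the group means of those 21 genes was 7.89 CPM in MG and 1.90 CPM in tdT- sdCAMs of the pools, and 4.16 CPM in vehicle tdT- sdCAMs.

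Scavenger and endocytic receptors, the molecules with which border macrophages take up proteins and lipids from the fluid spaces, were represented by 18 genes: 10 were called higher, 2 lower and 4 not called, and 2 were not tested (median log2 fold change 2.32). These were 62.5% and 12.5% of the tested genes, against 9.92% and 7.8% of all genes tested. Fcgrt, the neonatal Fc receptor gene, stood at 1274, 863 and 1496 CPM against 130, 110 and 101 CPM (3.43 ± 0.25 SE, adjusted p = 8.22e-05). Colec12, a collectin scavenger receptor gene, had 39.8, 32.7 and 63.7 CPM and no count in MG, at least 178-fold higher (adjusted p = 2.72e-04). Timd4, which encodes a phosphatidylserine receptor of long-lived resident macrophages, had 7.43, 8.31 and 24.8 CPM and 2 counts in all MG libraries together, a ratio of 239 with a counting interval of 65.6 to 1976 (adjusted p = 0.00416). Cd36, a fatty acid receptor gene, was above MG in all libraries, with 591, 430 and 389 CPM against 31.1, 163 and 203 CPM, but was not called (1.84 ± 0.57, adjusted p = 0.0610). The lower genes were Lrp1, an endocytic receptor of apolipoproteins (-1.13 ± 0.26, adjusted p = 0.0199), and Scarb2, a lysosomal membrane protein (-0.86 ± 0.21, adjusted p = 0.0273). Calls of Msr1 and Cd68 (higher) and of Lrp1 and Scarb2 were lost in 6, 8, 6 and 7 of 9 fits, with adjusted p up to 0.140, 0.162, 0.110 and 0.169. Timd4 was not called without pool M2 (0.0673).

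Of 13 iron and heme handling genes, 8 were called higher, 1 lower and 3 not called, and 1 was not tested (median log2 fold change 1.27). The higher share of the tested genes was 66.7%, against 9.92% of all genes, and the lower share 8.33%, near the 7.8% of all genes. Cp, the gene of the ferroxidase ceruloplasmin, stood at 321, 326 and 293 CPM against 1.92, 2.97 and 1.61 CPM (7.18 ± 0.29 SE, adjusted p = 1.02e-05). Blvrb, a biliverdin reductase gene of heme breakdown, stood at 566, 307 and 336 CPM against 53.4, 48.3 and 57.0 CPM (2.94 ± 0.27, adjusted p = 2.44e-04). Trf, the transferrin gene, stood at 3828, 4185 and 3497 CPM against 1577, 1334 and 1131 CPM (1.52 ± 0.18, adjusted p = 9.52e-04). The groups did not overlap in these 3 genes. Hmox1, the heme oxygenase gene, was higher by 2.29 ± 0.64 (adjusted p = 0.0423), and Slc11a1, an endosomal metal transporter gene, was lower by 0.82 ± 0.16 on the log2 scale (adjusted p = 0.0119). Hmox1, Ftl1 and Slc48a1 lost their calls in 6 of 9 fits each and Slc11a1 in 4, with adjusted p up to 0.179, 0.0946, 0.0900 and 0.115.

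Of 20 chemokine genes, 9 were called higher in tdT+ sdCAMs, 2 lower and 7 not called, and 2 were not tested (median log2 fold change 1.69). The higher share was 50% of those tested and the lower share 11.1%, against 9.92% and 7.8% of all genes tested. Ccl8, a ligand of monocyte and T cell receptors, stood at 1140, 1025 and 1632 CPM against 0.250, 0.934 and 0.594 CPM (11.05 ± 0.45 SE, adjusted p = 1.02e-05). Ccl24, an eotaxin gene, stood at 566, 557 and 231 CPM against 5.51, 7.13 and 7.46 CPM (6.08 ± 0.41, adjusted p = 6.20e-05). Ccl7, a monocyte attractant gene, stood at 1405, 2600 and 4964 CPM against 53.7, 129 and 129 CPM (4.86 ± 0.56, adjusted p = 8.58e-04). In the opposite direction, Ccl4, which encodes MIP-1 beta, stood at 200, 712 and 696 CPM against 1185, 4220 and 3236 CPM (-2.41 ± 0.58, adjusted p = 0.0244). Ccl3, its neighbor, had 248, 748 and 837 CPM against 525, 1547 and 1263 CPM (adjusted p = 0.299, or 0.0132 with the pool as a block): the groups overlapped, but MG was higher within each pool. Ccl12 stood at 1659, 1787 and 2834 CPM against 1525, 1698 and 2536 CPM (0.14 ± 0.27, adjusted p = 0.782). Calls of Ccl2, Cxcl1, Cxcl2, Cxcl10 and Ccl4 were lost in 8, 5, 5, 6 and 4 of 9 fits, with adjusted p up to 0.161, 0.170, 0.149, 0.233 and 0.133.

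Of the 12 chemokine receptor genes, 4 were called higher, 2 lower and 4 not called, and 2 were not tested (median log2 fold change 0.39). The shares of tested genes were 40% higher and 20% lower, against 9.92% and 7.8% of all genes. Ccr1, a receptor for CCL7 and related ligands, stood at 842, 793 and 651 CPM against 49.3, 82.9 and 77.6 CPM (3.46 ± 0.25 SE, adjusted p = 8.57e-05). Cxcr4, which responds to CXCL12, stood at 22.8, 24.8 and 26.6 CPM against 0.501, 0.934 and 1.19 CPM (4.82 ± 0.53, adjusted p = 6.37e-04). The groups did not overlap in either gene. Cxcr3 and C5ar1 were higher by 3.69 ± 0.78 and 0.75 ± 0.22 (adjusted p = 0.0149 and 0.0476), calls that were lost in 4 and 9 of 9 fits (up to 0.119 and 0.158). C5ar1 encodes the complement C5a receptor rather than a chemokine receptor and is counted on the complement list as well.

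Among 22 genes of inflammation and stroke response, 4 were called higher, 6 lower and 11 not called, and 1 was not tested (median log2 fold change -0.41). Of those tested, 19.0% were higher and 28.6% lower, against 9.92% and 7.8% of all genes tested. Il10, the gene of an anti-inflammatory cytokine, had 4.73, 36.2 and 30.0 CPM in tdT+ sdCAMs and no count in MG, at least 92.8-fold higher (adjusted p = 0.00456, up to 0.0564 without pool M2). Cybb, which encodes the catalytic subunit of the phagocyte oxidase, stood at 399, 395 and 451 CPM against 39.9, 99.2 and 104 CPM (2.37 ± 0.35, adjusted p = 0.00287). Both genes were above every MG library in every pool.

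The lower genes of that list were Mmp12, Il1a, Il1rn, Spp1, Gpnmb and Icam1. Spp1, the osteopontin gene of reactive microglia, ranged widely in MG: 743, 6806 and 11690 CPM, against 328, 623 and 891 CPM in tdT+ sdCAMs (log2 fold change -3.37 ± 0.85 SE, adjusted p = 0.0291). The groups overlapped across pools, yet MG was higher within each, and the call was lost in 7 of 9 fits (up to 0.171). Icam1, an endothelial and leukocyte adhesion ligand gene, stood at 48.5, 45.2 and 82.6 CPM against 201, 198 and 230 CPM (-1.82 ± 0.26, adjusted p = 0.00239). Il1b, in contrast to Il1a, overlapped, at 25.2, 215 and 168 CPM against 20.7, 152 and 104 CPM (0.57 ± 0.81, adjusted p = 0.687). Tnf stood at 43.1, 115 and 276 CPM against 368, 574 and 599 CPM (adjusted p = 0.0635, or 0.0132 with the pool as a block). The calls of Il1rn and Gpnmb were lost with the block (adjusted p = 0.0748 and 0.0912) and in 6 of 9 fits each without a pool or library (up to 0.170 and 0.104). Of 13 immediate early and dissociation genes, 1 was called higher (7.69%, near the 9.92% of all genes tested), Fosb, a call lost in 6 of 9 fits (adjusted p up to 0.161, without pool F3). With the pool as a block Fos and Dusp1 were called higher too (adjusted p = 0.0182 and 0.0173). In tdT+ sdCAMs pool F2 had the lowest sum of these genes, 9688 CPM against 31720 and 32490 CPM in the other pools.

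Integrins, which anchor cells to matrix and vessel walls, were represented by 17 genes, of which 1 was called higher, 6 lower and 7 not called, and 3 were not tested (median log2 fold change -1.44). Of the tested genes 7.14% were thus higher and 42.9% lower, against 9.92% and 7.8% of all genes tested. Itga4, the VLA-4 alpha chain gene with which monocytes bind vessel walls, stood at 15.2, 63.0 and 30.6 CPM in tdT+ sdCAMs and at 0.0835, 0.509 and 0.0848 CPM in MG (7.28 ± 0.89 SE, adjusted p = 0.00113). It was also present in tdT- sdCAMs of the same pools (7.06 to 36.5 CPM) and in vehicle tdT- sdCAMs (mean 37.6 CPM). Itgb3, the beta chain gene of the vitronectin receptor, had no count in tdT+ sdCAMs and 36.2, 53.1 and 33.6 CPM in MG, at least 137-fold lower (adjusted p = 2.53e-04). Itgb5 stood at 308, 352 and 439 CPM against 1616, 1436 and 1360 CPM (-1.99 ± 0.19, adjusted p = 3.32e-04). Itga6, a laminin receptor gene, stood at 81.0, 54.5 and 64.4 CPM against 236, 221 and 251 CPM (-1.81 ± 0.20, adjusted p = 6.00e-04). Itgb1, the common beta chain gene, overlapped (0.03 ± 0.23, adjusted p = 0.946). Itga5 and Itgb2 (both lower) lost their calls in 4 and 5 of 9 fits, with adjusted p up to 0.131 and 0.105 without pool F3.

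Of 16 complement genes, 4 were called higher, 1 lower and 8 not called, and 3 were not tested (median log2 fold change 0.41). Among those tested the higher share was 30.8%, against 9.92% of all genes, and the lower share 7.69%, near the 7.8% of all genes. The C1q chains, which both populations make, overlapped: C1qa stood at 9122, 7347 and 7635 CPM against 8751, 6634 and 5320 CPM (0.23 ± 0.21 SE, adjusted p = 0.494). Cfp, the gene of properdin, which stabilizes the alternative convertase, stood at 532, 365 and 425 CPM against 1.75, 3.65 and 1.44 CPM (7.60 ± 0.41, adjusted p = 2.58e-05). C4b stood at 113, 158 and 225 CPM against 2.84, 4.75 and 10.01 CPM (4.83 ± 0.50, adjusted p = 4.91e-04). Vsig4, a complement receptor gene of resident macrophages, had 10.6, 5.05 and 5.50 CPM and no count in MG, at least 27.7-fold higher (adjusted p = 0.00534). Vsig4, Cfp and C4b were thus higher in border cells, without overlap.

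Of 15 genes of purinergic and surface sensing, 3 were called higher, 6 lower and 4 not called, and 2 were not tested (median log2 fold change 0.04). Among the tested genes 23.1% were higher and 46.2% lower, against 9.92% and 7.8% of all genes tested. P2rx4, an ATP-gated channel gene, stood at 480, 405 and 453 CPM against 150, 175 and 153 CPM (1.4996 ± 0.17 SE, adjusted p = 6.97e-04), in contrast to P2ry12 and P2ry13. Adora3, an adenosine receptor gene, stood at 0.0, 2.18 and 2.40 CPM against 102, 90.7 and 92.0 CPM (-5.94 ± 0.79, adjusted p = 0.00170). Havcr2, which encodes the inhibitory receptor TIM-3, stood at 77.5, 83.5 and 95.7 CPM against 542, 458 and 412 CPM (-2.45 ± 0.19, adjusted p = 1.03e-04). Trem2, a lipid receptor gene of microglia, was lower by 1.06 ± 0.27 on the log2 scale (adjusted p = 0.0292), and this call was lost in 6 of 9 fits (up to 0.158). Siglece, an inhibitory sialic acid receptor gene, was higher (0.77 ± 0.22, adjusted p = 0.0462, or 0.0562 with the pool as a block), a call lost in 8 of 9 fits (up to 0.248). Tyrobp, the adaptor of TREM2, stood at 3280, 2325 and 2070 CPM against 2478, 2171 and 1332 CPM, with overlap (0.37 ± 0.27, adjusted p = 0.395).

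Within the border compartment of the same pools, tdT+ and tdT- sdCAMs were set side by side. The tdT+ and MG libraries of this fit were those of the comparison with MG above, whereas the tdT- libraries were not part of it. Of 12342 genes tested, 1 was called (0.0081%), with 833 at an unadjusted p under 0.05 and 126 called by DESeq2 (61 higher and 65 lower in tdT+ sdCAMs). The gene was Cd209b, which encodes the lectin SIGN-R1 of marginal zone macrophages. It stood at 8.87, 5.84 and 10.9 CPM in tdT+ sdCAMs and at a mean of 203 ± 28.6 CPM (SD, n = 3) in tdT- sdCAMs (log2 fold change -4.58 ± 0.41 SE, adjusted p = 0.00500), while MG held 2 counts in all. The call was lost without any 1 of the 3 pools and without the tdT+ library of F2, and without the tdT- library of F3 the number of called genes rose to 18.

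Border markers that were high against MG but below the tdT- values in all 3 pools included several that mark resident macrophages elsewhere; they are singled out with their values known. Cd163, at 325 to 374 CPM in tdT+ sdCAMs, stood at 814, 1404 and 1730 CPM in tdT- sdCAMs of pools F2, F3 and M2 (log2 fold change -1.91 ± 0.49 SE, adjusted p = 0.481). Timd4 stood at 121, 112 and 139 CPM in tdT- sdCAMs, above the 7.43 to 24.8 CPM of tdT+ sdCAMs (-3.20 ± 0.56, adjusted p = 0.184). Colec12 stood at 159, 218 and 362 CPM, above the 32.7 to 63.7 CPM of tdT+ sdCAMs (-2.46 ± 0.39, adjusted p = 0.199). Cd209f stood at 613, 329 and 696 CPM, above the 96.6 to 227 CPM of tdT+ sdCAMs (-1.74 ± 0.37, adjusted p = 0.421). None of these 4 differences passed the test, and the groups did not overlap in any of them; over all genes tested, 3.98% had tdT+ values below all tdT- values. Over the 1351 border set genes tested here, the median log2 fold change between tdT+ and tdT- sdCAMs was -0.05. Other members of that set, likewise picked with their values known, had positive fold changes and were not called either. Mgl2 changed by 0.57 (adjusted p = 0.956) and H2-Eb1 by 1.40 (adjusted p = 0.548). H2-Aa changed by 1.40, H2-Ab1 by 1.34 and Cd74 by 1.32 (adjusted p = 0.590 in each).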

How the data were processed

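Macrophages and microglia were sorted from mouse brain by flow cytometry, MG as CD45int CD11b+ CD206- cells and sdCAMs as CD45int CD11b+ CD206int-high cells divided by tdT, both without cells positive for Ly6C, Ly6G or CD11c, and sequenced from low-input SMART-Seq libraries without molecular identifiers. The authors aligned the reads with STAR 2.7.11a and counted them per gene with featureCounts, and deposited raw counts of 33280 gene symbols in 23 libraries. The labels name featureCounts 2.0.6; the methods of the study name mm10 and GRCm39 for its sequencing, and which of these underlies the table is not clear from them.

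Counts were analysed as deposited in R 4.3.3 with edgeR 4.0.16: TMM scaling, filterByExpr, quasi-likelihood F test and Benjamini-Hochberg adjustment over all genes tested, with a threshold of 0.05. The 6 libraries entered the main comparison, 9 the comparison of tdT+ with tdT- sdCAMs, 10 the vehicle comparison and 16 the difference of contrasts. The procedure was tested on simulated counts. Alternatives were DESeq2 1.42.0, DESeq2 size factors, 2 other gene filters, the pool as a block, other sets of libraries and leaving out each pool or library. Libraries of 1 pool come from the same animals; the deviations of tdT+ sdCAMs and MG from their group means correlated by 0.179, 0.104 and 0.158 within pools. Ratios for genes with 1 to 3 counts in a group carry exact 95% intervals, which cover counting error only; a floor of 3 counts per library replaced groups at 0.

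Genes were named by rule: the 10 largest rises and falls among called genes with an average log2 CPM of at least 5 and no overlap, the 5 largest called differences of contrasts in each direction at the same level, the 5 border set members with the lowest and the 5 microglia set members with the highest fold change at that level, and members of 16 gene lists and 15 marker lists. The members and lists were chosen with earlier results of these data known. The p-values of the main comparison and of tdT+ against tdT- sdCAMs measure the spread between 3 pools, of which F2 held 1 mouse by its label. Those of the vehicle comparison measure the spread between 5 mice. Those of the difference of contrasts rest on the 3 pools and the 5 vehicle mice together. Some genes that the rule covers are not reported here.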

Additional observations from a re-analysis of the deposited data

Results flagged for a closer look

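In 32 groups of vehicle libraries, single libraries were tested for a wide gap to the rest, and chance gives such a gap in about 1 in 20 groups. In vehicle MG, H2-Aa stood at 40.65 CPM in F2 with the nearest library at 18.46 CPM, Ifit2 at 74.91 CPM in F3 with the nearest at 42.13 CPM, and Xlr at 75.05 CPM in M2 with the nearest at 81.72 CPM. The microglia set took 16.84% of counts in vehicle MG of M2, with the nearest library at 19.58%. In vehicle tdT- sdCAMs, Slc40a1 stood at 819.3 CPM in M1 with the nearest library at 548.3 CPM, and Colec12 at 432.4 CPM in F3 with the nearest at 353.0 CPM.

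The contrast between border macrophages and MG differed between the BLZ945 pools and vehicle mice in 64 genes by edgeR's quasi-likelihood test of the difference itself. Among the genes named, positive log2 differences were 3.618 for H2-Aa, 3.309 for H2-Eb1, 2.407 for H2-Ab1, 2.124 for Serpinf1 and 1.979 for Cd74. Negative differences were -3.246 for Ifit2, -2.52 for Sgce, -2.387 for Sox4, -2.332 for Xlr, -1.977 for Slc40a1 and -1.445 for P2rx7.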

How the results depend on the processing

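For tdT+ sdCAMs against MG, 2065 genes were called, against 2860 by DESeq2, 2064 with DESeq2 size factors, 2012 without a filter, 1689 with at least 10 counts in every library and 1708 with a log2 fold change of at least 1. With all 5 MG libraries of BLZ945 mice the count was 3668, with the 9 libraries of the pools 1149 and with all 23 libraries 3477. The first and the last include the BLZ945 pool M1, whose name repeats the animal number of pool F2. By the labels M1 is male and F2 female, so the labels conflict, and whether these pools share an animal is not clear. Leaving out a pool or library gave 745 to 2321, with fewer libraries by construction. With the pool as a replicate block 1775 genes were called (971 higher, 804 lower), 622 of the border set and 474 of the microglia set. The block changed 19 of the 266 calls of named or listed genes, given in the report where those genes are described, apart from Gfap, which was called higher with the block (adjusted p = 0.0474).

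The border set count of 752 became 353 to 732 in leave-one-out fits. The microglia set count of 491 became 269 to 553 there, 316 with the 9 libraries of the pools and 256 with the stricter reference set, of which 403 members were tested (63.5% called, against 54.7%). For tdT+ against tdT- sdCAMs, 1 gene became 126 by DESeq2, 19 without a filter, 1 with the block and 0 to 18 in leave-one-out fits. For the difference of contrasts, 64 became 261 by DESeq2, 33 with at least 10 counts in every library, 47 with the block and 36 to 222 in leave-one-out fits, which include the vehicle mice, an alternative added after the data were seen. The vehicle comparison gave 3153 to 3700 genes in leave-one-out fits. Among 5 named genes that were not called, leave-one-out fits changed the sign of the log2 fold change: Plk2 (-1.23 to 0.3236), Matk (-0.0261 to 0.3294), Tmsb10 (-0.2234 to 0.293), Rogdi (-0.3132 to 0.1122) and Tns1 (-0.3399 to 0.03597). Where a call was lost, the cause was not tested. A gene with 3 counts in a library stood at 0.250 to 0.300 CPM, and levels near it cannot be ranked.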
